A study of Mus musculus with 9 samples.

Results

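The genes Dock9, Prrg2, Tmed9, Ltb, Mmaa, Chm and Tagln2 were examined in mouse lung as genes whose RNA level ran in one direction with the number of human CFTR transgene alleles. They were named with results of these arrays known, and each shows a mean signal that moves from wild type to 1 allele to 2 alleles without turning back at a leading probe set. That property does not single them out, since many other probe sets have it, and no further rule for picking these genes among them is given. The leading probe set is, among those of the gene that passed a filter on dim signal and had group means in one direction, the one with the largest absolute moderated t between 2 alleles and none. These are 7 of the 12394 genes that the array names by a single symbol, and they are measured by 12 of its 22690 probe sets. Of these, 11 passed the filter and 1, for Prrg2, did not. The genes were chosen on the differences between the same arrays, so those differences are given as a description, without a test.

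Lung total RNA of adult FVB/N mice was hybridised to 9 Affymetrix arrays in 3 groups of 3. WT mice carried no transgene, HE mice were SP-C-hCFTR+|- (1 transgenic allele) and HO mice were SP-C-hCFTR+|+ (2 alleles). The transgene is the normal human CFTR cDNA, a chloride and bicarbonate channel of epithelia, placed under the promoter of the surfactant protein C gene. That promoter acts in respiratory epithelial cells, whereas the RNA came from whole lung, so fewer cells of a type and less RNA per cell cannot be told apart. The mouse's own Cftr was given as mCftr+|+ for every array except WT replicate 3, whose labels state only the strain. HO replicate 2 is titled and genotyped as homozygous, but its description, while using that word, writes SP-C-hCFTR+|-. It was kept as HO, and values that turn on it are given below.

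Array medians ran from 697 to 742, and all 12 markers of lung epithelium were above the filter. After a floor and a log2 conversion, 13576 probe sets were fitted with limma. With Benjamini-Hochberg adjustment over all of them, 0 (0.0%) passed an adjusted p of 0.05 in HO against WT, HE against WT or HO against HE (lowest adjusted p = 0.602, 0.685 and 0.9998 in limma). At an unadjusted p under 0.05 there were 610 (4.49%), 422 (3.11%) and 348 (2.56%). Group means in one direction from WT over HE to HO were found for 5108 probe sets (37.6%), 2503 upward (18.4%) and 2605 downward (19.2%), so the property that defines these genes is common on the array. By absolute moderated t for HO minus WT the leading probe sets stood at ranks 6 (Tagln2), 15 (Dock9), 18 (Prrg2), 19 (Tmed9), 20 (Ltb), 23 (Mmaa) and 25 (Chm). Of the 25 probe sets down to that of Chm, 24 had group means in one direction, 10 upward and 14 downward. The exception was Polr1b, just outside the rule, with HO minus WT at 0.58 and HE minus WT at -0.09 on the log2 scale. Where HO and WT lie far apart, an HE mean between them is likely, so nothing is read from the count of 24. Among the genes examined here, the smallest step was that of Tagln2, -0.06 from HE to HO.

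The proteins of these genes work in different parts of the cell. Tmed9 and Chm belong to membrane traffic: p24 proteins such as Tmed9 select cargo between the endoplasmic reticulum and the Golgi, and Rab escort proteins such as Chm present newly made Rab GTPases for the lipid tail that anchors them to membranes. Dock9 and Tagln2 act on the actin skeleton, Ltb is a ligand of lymphocytes, Prrg2 is a membrane protein with a vitamin K-dependent Gla domain, and Mmaa serves the vitamin B12-dependent enzyme of mitochondrial propionate breakdown.

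At the leading probe sets 6 genes had their highest mean in HO and 1, Tagln2, its lowest. Among the upward genes the mean HO signal was 1.42 to 1.69 times the WT signal (geometric means), and for Tagln2 the WT signal was 1.64 times that of HO. The signal ranges of HO and WT were separate for 7 of the 7 (8.88% of all tested probe sets), those of HE and WT for 6 (7.7%) and those of HO and HE for 3 (6.66%). All arrays lay in the order of allele number for 3 genes, Prrg2, Tmed9 and Mmaa (0.155% of all). Counting HO replicate 2 as HE, the ranges of HO and HE were separate for 0 of the 7 genes and the full order was lost in those 3, while HE and WT stayed separate for 6. Because the genes were chosen on these contrasts, nothing is read from the comparison with those shares. The HE mean did not sit at the same point between WT and HO in all genes. It had covered 43.6% of the log2 distance for Ltb, 59.2% for Mmaa, 59.7% for Chm, 60.7% for Prrg2 and 62.0% for Dock9. For Tmed9 it had covered 81.9% and for Tagln2 91.8%. These positions turned on single arrays: counting HO replicate 2 as HE gave 91.4% for Dock9, 89.1% for Prrg2, 85.1% for Tmed9, 78.7% for Ltb, 74.5% for Mmaa, 64.3% for Chm and 112% for Tagln2. Leaving out HE replicate 1 gave 29.1% for Ltb, and leaving out HE replicate 2 gave 35.8% for Dock9. The distance of HE from the midpoint was 0.16 ± 0.11 (SE) for Tmed9 and -0.30 ± 0.12 for Tagln2, against -0.05 to 0.09 with standard errors of 0.12 to 0.16 for the other genes.

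**Figure D1:**
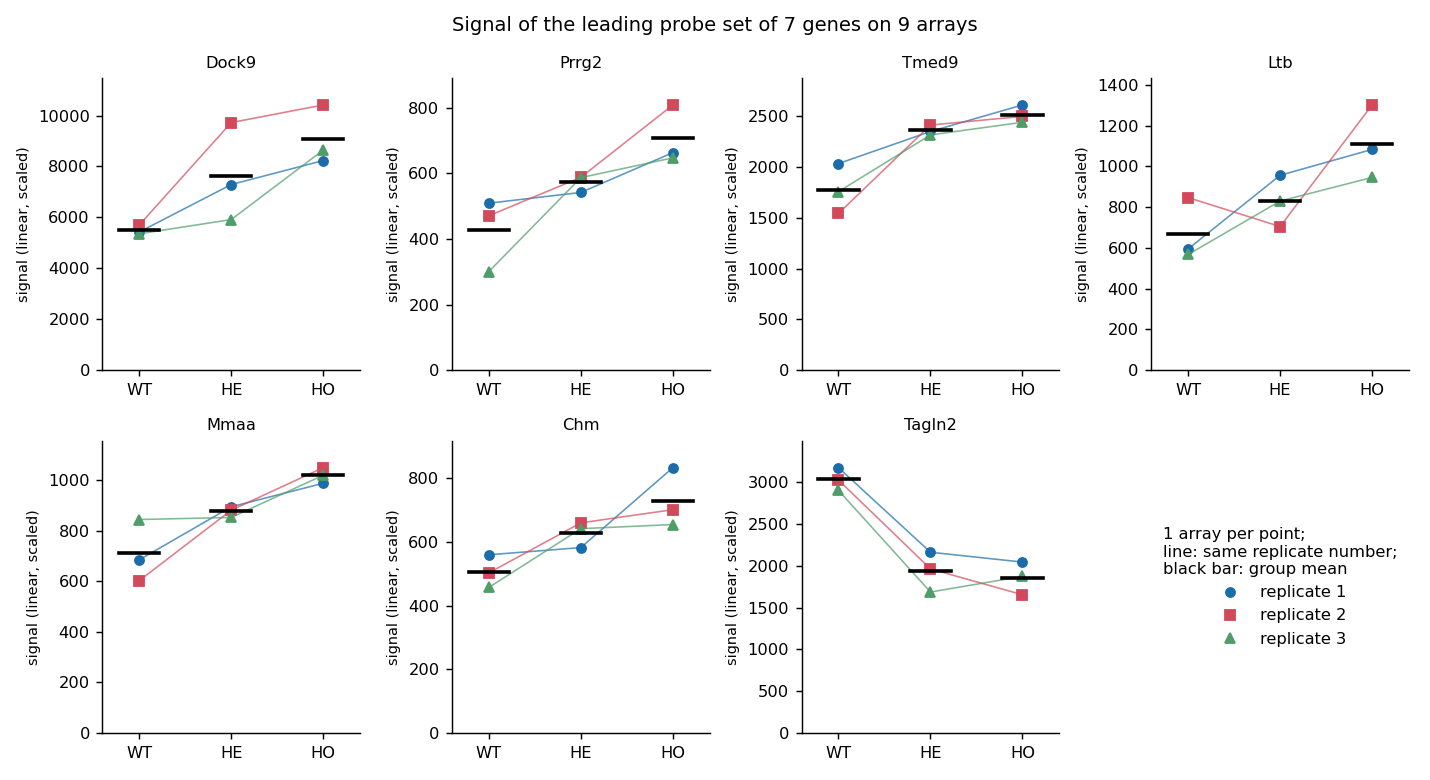
Signal of the leading probe set of each of the 7 genes (vertical axis, linear signal as deposited) on 9 arrays by genotype (horizontal axis). Each point is an array, lines join arrays of the same replicate number and black bars are group means of 3 arrays; 6 genes are highest in HO, whereas Tagln2 drops from WT to HE and is nearly level from HE to HO.

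Tmed9, the p24 cargo receptor, was measured by 2 probe sets that went opposite ways. At the leading one, 1439448_x_at, the signal was 2034, 1543 and 1758 in WT replicates 1, 2 and 3, then 2350, 2414 and 2317 in HE and 2612, 2499 and 2441 in HO. Every HE array was above every WT array and every HO array above every HE array, with HE minus WT at 0.42 ± 0.13 (moderated SE, n = 3 per group) and HO minus WT at 0.51 ± 0.13 on the log2 scale. The suffix _x_at marks a probe set in which some probes also match other sequences. The second Tmed9 probe set, 1448268_at, has no such suffix and is brighter, with 4165, 6731 and 6394 in WT, 4565, 4536 and 5221 in HE and 3792, 4990 and 4460 in HO. Its HO minus WT was -0.36 ± 0.19 and its HE minus WT -0.24 ± 0.19, and all its groups overlapped. The direction for Tmed9 therefore depends on the probe set, as it did for 1595 of the 2882 genes with more than 1 tested probe set (55.3%), where HO minus WT had both signs.

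Chm, the Rab escort protein whose loss in people causes the retinal disease choroideremia, had a single probe set. Its signal was 560, 503 and 457 in WT, 582, 660 and 642 in HE and 833, 701 and 655 in HO. All WT arrays were below all HE and HO arrays, while HO replicate 3 lay below HE replicate 2, so the transgenic groups overlapped. HE minus WT was 0.31 ± 0.14 and HO minus WT 0.52 ± 0.14 on the log2 scale.

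The first bases of the Chm and Tmed9 transcripts are shown because they share an element that no other member has. RefSeq promoter windows (GRCm38.p6, 250 bases before to 50 after each start) were searched on both strands for short motifs that were picked after the promoters had been read. All 7 genes matched, with 10 windows in all: 3 for Dock9, 2 for Mmaa and 1 for each other gene. The letters AAGATGGC, the core of YY1 elements, occurred in 2.75% of the 32851 windows. They lie from base 24 past the start in Chm and from base 37 in Tmed9, both on the gene's own strand. Written 5′ to 3′, with capitals for the element, the Chm stretch is chrX:113185479-113185498 on the minus strand and the Tmed9 stretch is chr13:55593165-55593184 on the plus strand.
Chm: cctgtcAAGATGGCggataa
Tmed9: tggggcAAGATGGCtgcggt
A match of letters describes the window and does not show binding.

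In the rest of the secretory route, 34 of 39 listed p24 proteins, coat subunits and cargo receptors were measured, 18 higher and 16 lower in HO than in WT, and 0 passed the test in either direction. The list median of HO minus WT was 0.03, beside 0.00 over the 8184 genes tested (1 probe set per gene). With median centring of the arrays the list median was 0.08. Tmed10, a p24 partner, was at 0.15 ± 0.13 in HO and 0.24 ± 0.13 in HE. The largest difference was that of Copg2, a subunit of the COPI coat, at -0.56 ± 0.15 in HO (adjusted p = 0.992 in limma) and -0.33 ± 0.15 in HE. Its signal was 772, 948 and 934 in WT and 568, 566 and 664 in HO, without overlap. Sec23a, of the COPII coat, was at -0.38 ± 0.18, Copg1 at -0.23 ± 0.14 (0.07 at its other probe set) and the Golgi stacking protein Gorasp2 at 0.21 ± 0.12 (-0.26 at its other probe set).

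In the prenylation pathway of Chm, 25 of 29 genes were measured, 12 higher and 13 lower in HO, and 0 passed in either direction. Their median was -0.01, and 0.05 with median centring of the arrays. The subunits of the Rab geranylgeranyl transferase, to which Chm delivers Rabs, were close to 0 (Rabggta -0.08 ± 0.13, Rabggtb -0.07 ± 0.15). Chml, the second Rab escort protein, was under the filter, between 178 and 429 on all arrays. Of the substrates and enzymes, Rab8a was at -0.50 ± 0.22 in HO, with 3328 and 3178 in HO replicates 1 and 2 but 6056 in HO replicate 3, above all WT arrays (5345 to 5846). Icmt, which methylates prenylated proteins, was at 0.38 ± 0.19, Rab5a at 0.25 ± 0.13 and Ggps1, which makes the lipid donor, at -0.33 ± 0.21 (-0.06 and -0.50 at its other probe sets).

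Dock9, an exchange factor that activates the small GTPase Cdc42, differed at 1 of its 3 probe sets. At the leading probe set, 1444028_s_at, the signal was 5427, 5699 and 5357 in WT, 7291, 9725 and 5915 in HE and 8234, 10417 and 8645 in HO. The WT arrays lay close together (coefficient of variation 3.29%), while HE replicate 3 was close to WT and HE replicate 2 above HO replicates 1 and 3. HE minus WT was 0.45 ± 0.18 and HO minus WT 0.72 ± 0.18 on the log2 scale, and HE minus WT was 0.26 without HE replicate 2. The step from HE to HO, 0.27 ± 0.18, was 0.10 without HE replicate 3, 0.17 without HO replicate 2, 0.46 without HE replicate 2 and 0.05 once HO replicate 2 was moved to HE. The other probe sets showed much smaller differences. At 1450932_s_at the WT arrays already ran from 3632 to 5585, spanning all HO arrays (4769 to 5033), and HO minus WT was 0.08 ± 0.17. At 1450931_at the groups overlapped as well, with WT between 1046 and 1447 and HO between 921 and 1347, and HO minus WT was -0.13 ± 0.19. The suffix _s_at marks probes shared by more than 1 transcript, not necessarily of 1 gene. RefSeq gives Dock9 3 start sites. Which transcripts, and of which genes, each probe set reads was not tested.

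Cdc42 itself was measured by 4 probe sets, each with a lower mean in HO than in WT. The differences were -0.61 ± 0.23 at the dimmest (1435807_at), -0.16 ± 0.13, -0.17 ± 0.14 and -0.06 ± 0.13, and none passed the test over all probe sets. At 1435807_at the signal was 579, 743 and 790 in WT and 421, 332 and 679 in HO, so HO replicate 3 lay within the WT range. Among the DOCK family, Cdc42 effectors and regulators, 22 of 33 were measured, 12 higher and 10 lower in HO, with 0 passing in either direction. Their median was 0.08, and -0.01 without WT replicate 2. The highest was Cdc42ep4, a Cdc42 effector, at 0.31 ± 0.15 in HO and 0.43 ± 0.15 in HE, and at -0.05 in HO by its other probe set. Dock2, the family member of leukocytes, was at 0.25 ± 0.17, Cdc42ep1 at 0.20 ± 0.14 and Baiap2 at 0.18 ± 0.14 (-0.02 at its other probe set).

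Tagln2, a calponin-family protein that binds actin filaments, was the gene with less signal in transgenic lung. At the leading probe set, 1439407_x_at, the signal was 3174, 3026 and 2902 in WT, 2162, 1962 and 1686 in HE and 2044, 1653 and 1873 in HO. Each transgenic array was below each WT array, and HE and HO overlapped. HE minus WT was -0.65 ± 0.14 and HO minus WT -0.71 ± 0.14 on the log2 scale. The step from HE to HO was -0.06 ± 0.14 and turned to 0.02 without HE replicate 1, to 0.02 without HO replicate 2 and to 0.08 when HO replicate 2 was counted as HE. The order of HE and HO therefore rested on single arrays, while both lay below WT. Its brighter probe set, 1426529_a_at, read 11334, 10395 and 10317 in WT, 9462, 8637 and 11473 in HE and 9931, 6500 and 10348 in HO. There HO minus WT was -0.29 ± 0.18 and HE minus WT -0.12 ± 0.18, with the lowest value in HO replicate 2 and the highest in HE replicate 3. The leading probe set has the _x_at suffix, as has that of Tmed9, making 2 of 7 beside 7.34% of all tested probe sets.

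The promoter of Tagln2 is shown because it is the member with the opposite direction and because its window holds the GC box (GGGCGG), the element of Sp factors. GC boxes were found in windows of Tagln2, Prrg2, Mmaa and Dock9 and in 35.7% of all windows, hence also in members of both directions. Capitals mark the GC boxes on either strand in the 250 bases upstream of the start, chr1:172499996-172500245 on the plus strand of GRCm38.p6.
Tagln2: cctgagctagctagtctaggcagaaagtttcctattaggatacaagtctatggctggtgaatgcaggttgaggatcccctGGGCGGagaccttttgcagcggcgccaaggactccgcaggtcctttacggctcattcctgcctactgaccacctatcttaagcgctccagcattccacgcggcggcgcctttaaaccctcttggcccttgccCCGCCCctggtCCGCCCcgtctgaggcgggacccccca

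Of 40 listed actin-binding genes 36 were measured, 22 higher and 14 lower in HO than in WT, with a median of 0.03 and 0 passing in either direction. Of its relatives, Tagln, of smooth muscle, was at 0.08 ± 0.19 and the calponins at -0.46 ± 0.51 (Cnn1, the lowest of the list), 0.07 ± 0.13 (Cnn2) and 0.05 ± 0.13 (Cnn3, other probe sets from -0.09 to 0.65). Cnn1 and Cnn3 are named after their values were seen. The lowest p-values belonged to the myosin light chain Myl6 (-0.40 ± 0.19), the actin crosslinker Actn1 (-0.34 ± 0.17, other probe sets -0.19 and 0.06), the capping protein Capg (0.30 ± 0.16) and the tropomyosin Tpm3 (0.20 ± 0.12, other probe sets 0.17, 0.01 and -0.23). Markers of smooth muscle, 8 of 8 measured and none at the floor on every array, summed to 15886 to 26054 in WT, 19134 to 23112 in HE and 17116 to 18798 in HO. Acta2 alone read 7429 to 13059, so it weighs most in these sums. The part of smooth muscle or of any other cell type in the Tagln2 values was not tested.

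Ltb encodes lymphotoxin beta, which T and B lymphocytes and innate lymphoid cells place on their surface together with lymphotoxin alpha to signal through the receptor Ltbr and build lymphoid tissue. It had a single probe set. The signal was 595, 847 and 568 in WT, 956, 705 and 830 in HE and 1083, 1301 and 946 in HO. HO arrays were all above WT arrays, but HE replicate 2 lay below WT replicate 2, and HO replicate 3 just below HE replicate 1. HE minus WT was 0.32 ± 0.19 and HO minus WT 0.74 ± 0.19 on the log2 scale, and HE minus WT was 0.50 without WT replicate 2 and 0.49 with HO replicate 2 among the HE arrays. The HO to HE step was 0.42 ± 0.19, and 0.13 when HO replicate 2, the array of highest Ltb, was counted as HE.

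Lymphocyte markers were set beside Ltb because the RNA is of whole lung. T cell markers, 13 of 16 measured, summed to a signal of 8767 to 10704 in WT, 9718.5 to 11537 in HE and 9622 to 11939 in HO, and 8 of 13 had a higher mean in HO than in WT. B cell markers, 11 of 13 measured, summed to 9004 to 9744.5 in WT, 7301.5 to 9704 in HE and 7457 to 10656 in HO, with 3 of 11 higher in HO. None of the measured markers of either kind was at the floor on every array. A sum weighs bright probe sets most, and Zap70 alone read 2521 to 3906. Single T cell markers, named after their values were seen, went both ways in HO minus WT. Cd3d was at 0.41 and Cd3g at 0.29, against -0.13 for Cd2 and -0.11 for Cd3e. Trat1, under the filter, was at 0.93, with HO arrays (106 to 134) above WT arrays (44.8 to 85.0). HO replicate 2 had the highest sum of both lists as well as the highest Ltb, whereas HO replicate 3, also above every WT array in Ltb, had the second lowest B cell sum. The part of lymphocyte number in the Ltb values was not tested.

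**Figure D2:**
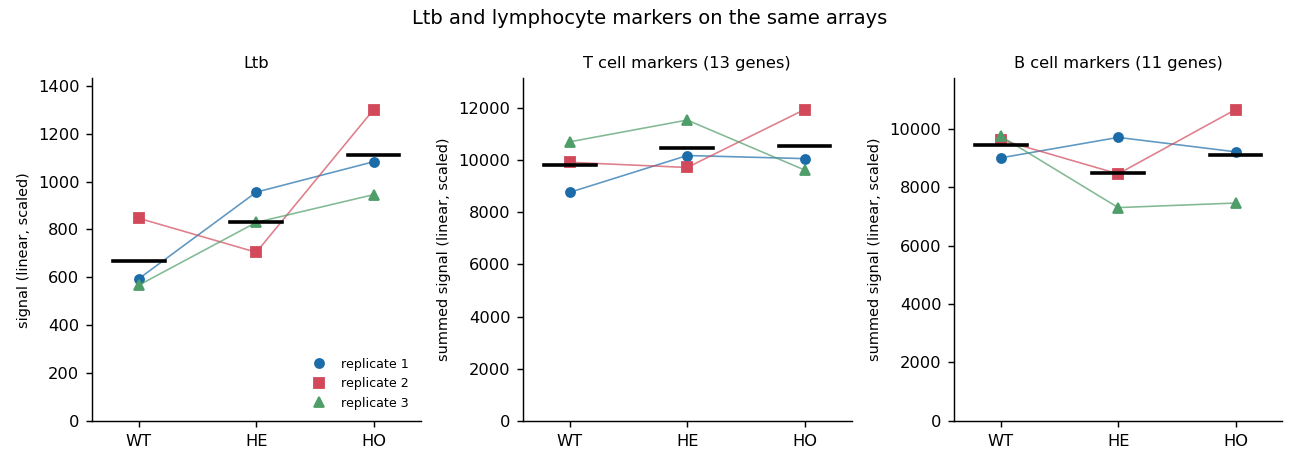
Ltb signal (left), summed signal of 13 T cell markers (middle) and summed signal of 11 B cell markers (right) on the same 9 arrays by genotype; points are arrays, lines join arrays of the same replicate number and black bars are group means. Ltb does not overlap between WT and HO, the marker sums overlap between all groups, and HO replicate 2 is highest in each panel. The sums weigh bright probe sets most and do not show single markers.

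The Ltb promoter is shown because it carries the letters GGGACTTTC, a classical binding element of NF-kB, the factor through which lymphotoxin signals. The element lies on the opposite strand, from 86 bases before the start, and occurred in 116 of the 32851 windows (0.353%) and in no other member window. In the 250 bases upstream of the start, chr17:35194257-35194506 on the plus strand of GRCm38.p6, capitals mark it as read on the printed strand.
Ltb: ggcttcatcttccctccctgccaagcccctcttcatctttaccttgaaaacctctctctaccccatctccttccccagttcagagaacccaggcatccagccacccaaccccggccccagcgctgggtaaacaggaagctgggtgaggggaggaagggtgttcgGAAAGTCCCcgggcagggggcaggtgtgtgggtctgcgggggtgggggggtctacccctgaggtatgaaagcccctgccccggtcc

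The lymphotoxin and NF-kB genes around Ltb had 19 of 33 members measured, 7 higher and 12 lower in HO than in WT, with 0 passing in either direction. Their median was -0.09, and -0.04 with median centring of the arrays. The receptor Ltbr was level, at -0.02 ± 0.12 in HO, with every array between 2672 and 3171. Lta, the partner subunit, was under the filter at 49 to 281. The kinase Map3k14 of the alternative NF-kB pathway was at -0.21 ± 0.12, Tnfrsf11a at -0.22 ± 0.14, the adhesion molecule Icam1 at -0.20 ± 0.12 and the B cell chemokine Cxcl13 at -0.37 ± 0.20, with 0.00 at its other probe set.

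Prrg2, a small transmembrane protein whose Gla domain is carboxylated with the help of vitamin K, was the dimmest of the leading probe sets, at the 5.98th percentile of mean level among those tested. At 1424329_a_at, whose suffix marks alternative transcripts of a single gene, the signal was 509, 471 and 301 in WT, 542, 588 and 587 in HE and 663, 809 and 647 in HO. The groups did not overlap at any step, although WT replicate 3 stood low by itself. HE minus WT was 0.46 ± 0.19 and HO minus WT 0.76 ± 0.19 on the log2 scale. Without WT replicate 3 HE minus WT was 0.22 and HO minus WT 0.52. The step from HE to HO, 0.30 ± 0.19, was 0.20 without HO replicate 2 and 0.07 with that array counted as HE. The second probe set, 1432763_at, was near background, at 137, 65.9 and 28.0 in WT, 24.5, 24.4 and 68.7 in HE and 33.6, 25.7 and 42.1 in HO, with 2 arrays at the floor of 25.5 and overlap between all groups. Of the other Gla proteins and their processing, 14 of 24 were measured, 6 higher and 8 lower in HO, with a median of -0.01 and 0 passing. The carboxylase Ggcx was at -0.02 ± 0.17. The ubiquitin ligase Wwp2 was lowest at -0.33 ± 0.14 (0.20 at its other probe set), followed by the vitamin K-reducing enzyme Nqo1 at -0.25 ± 0.28. Vkorc1, the vitamin K epoxide reductase, was at 0.19 ± 0.14 and the Gla protein Mgp at 0.13 ± 0.14.

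Mmaa, a mitochondrial chaperone that loads and protects the B12 cofactor of methylmalonyl-CoA mutase, had a single probe set. Its signal was 685, 603 and 845 in WT, 895, 882 and 853 in HE and 988, 1050 and 1020 in HO. The arrays lay in the order of allele number without overlap, and the transgenic arrays were close to one another, with coefficients of variation of 2.46% in HE and 3.03% in HO against 17.3% in WT. WT replicate 3, at 845, stood just under the lowest HE array, so HE minus WT within replicate number 3 was 0.01 against 0.39 and 0.55 within numbers 1 and 2. HE minus WT was 0.32 ± 0.14 (0.20 without WT replicate 2) and HO minus WT 0.53 ± 0.14 on the log2 scale.

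Among B12 and propionate genes, 23 of 31 were measured, 17 higher and 6 lower in HO than in WT (73.9%, beside 50.0% of all genes), with a median of 0.08 and 0 passing in either direction. Without WT replicate 3 the median was 0.03. The mutase Mmut, the enzyme that Mmaa serves, was at 0.51 ± 0.20 in HO but -0.00 ± 0.20 in HE at its brightest probe set, where the signal was 2093, 1471 and 1599 in WT and 2553, 3069 and 1819 in HO. Another Mmut probe set past the filter gave -0.14 ± 0.22, and 1416839_at, under the filter, gave 0.16 ± 0.14. The adenosyltransferase Mmab was under the filter at 3 probe sets, with HO minus WT from -0.06 to 0.01. The epimerase Mcee was at -0.24 ± 0.15, the B12 trafficking protein Mmadhc at 0.18 ± 0.12 in HO and 0.32 ± 0.12 in HE, and the dehydrogenase Acadsb at 0.21 ± 0.13.

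**Figure D3:**
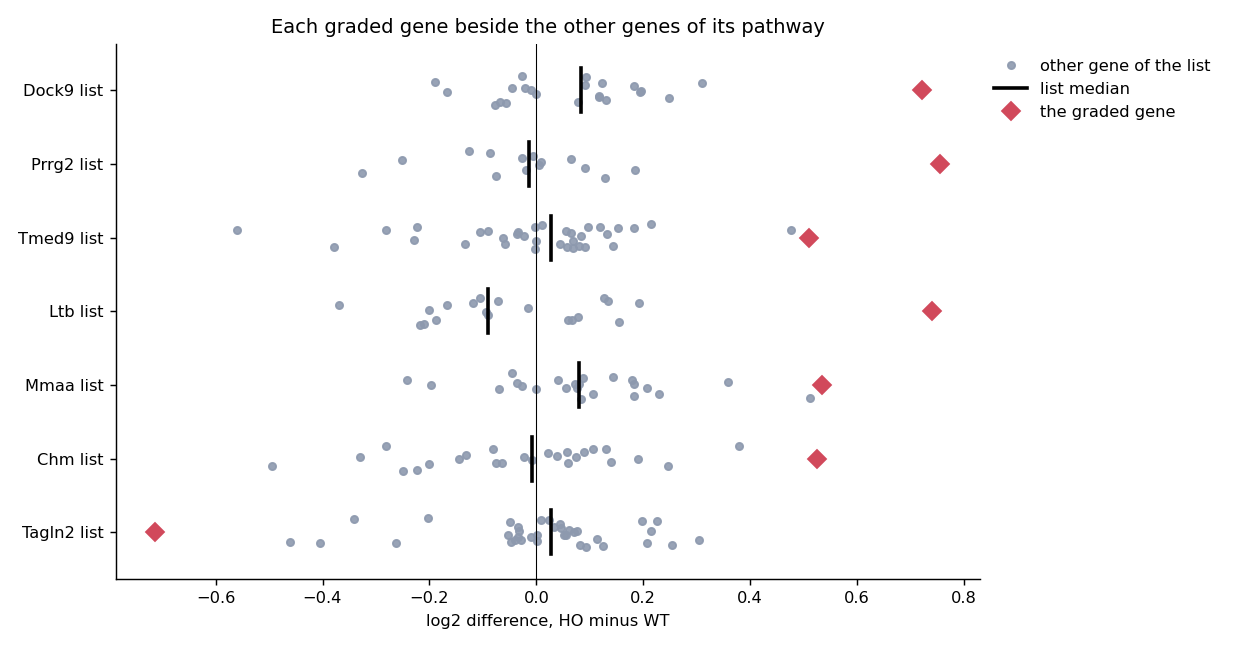
Log2 difference between HO and WT (horizontal axis) for each graded gene (red diamond), the other measured genes of its fixed pathway list (grey points, 1 probe set per gene) and the list median (black bar). The list medians lie between -0.09 and 0.08, away from the graded genes, which were chosen for their difference.

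Taking all probe sets of the 7 genes, agreement between probe sets of a gene was limited. Of the 5 other probe sets, which belong to 4 genes, 1 of Dock9 and 1 of Tagln2 had differences of the same sign as the leading one, and the remaining 3 had the opposite sign. HO and WT arrays overlapped at all 5. Their HO minus WT differences were 0.08 and -0.13 for Dock9, -0.29 for Tagln2, -0.36 for Tmed9 and -0.93 ± 0.62 for Prrg2, the last without the filter. The 3 genes with a single probe set, Ltb, Mmaa and Chm, could not be checked this way.

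**Figure D4:**
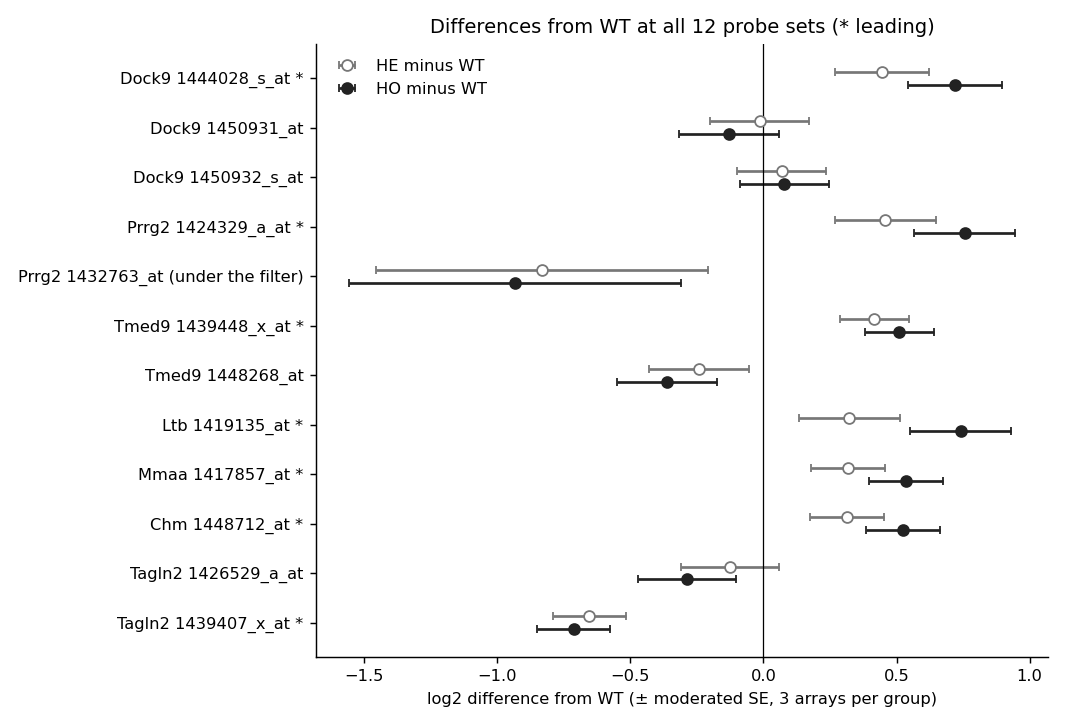
Log2 difference from WT for HE (open circles) and HO (filled circles) at all 12 probe sets of the 7 genes, with moderated standard errors (3 arrays per group); an asterisk marks the leading probe set. Leading probe sets of 6 genes lie right of 0, and the other probe sets of Dock9, Prrg2 and Tmed9 lie at or left of 0 except 1 of Dock9.

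**Figure D5:**
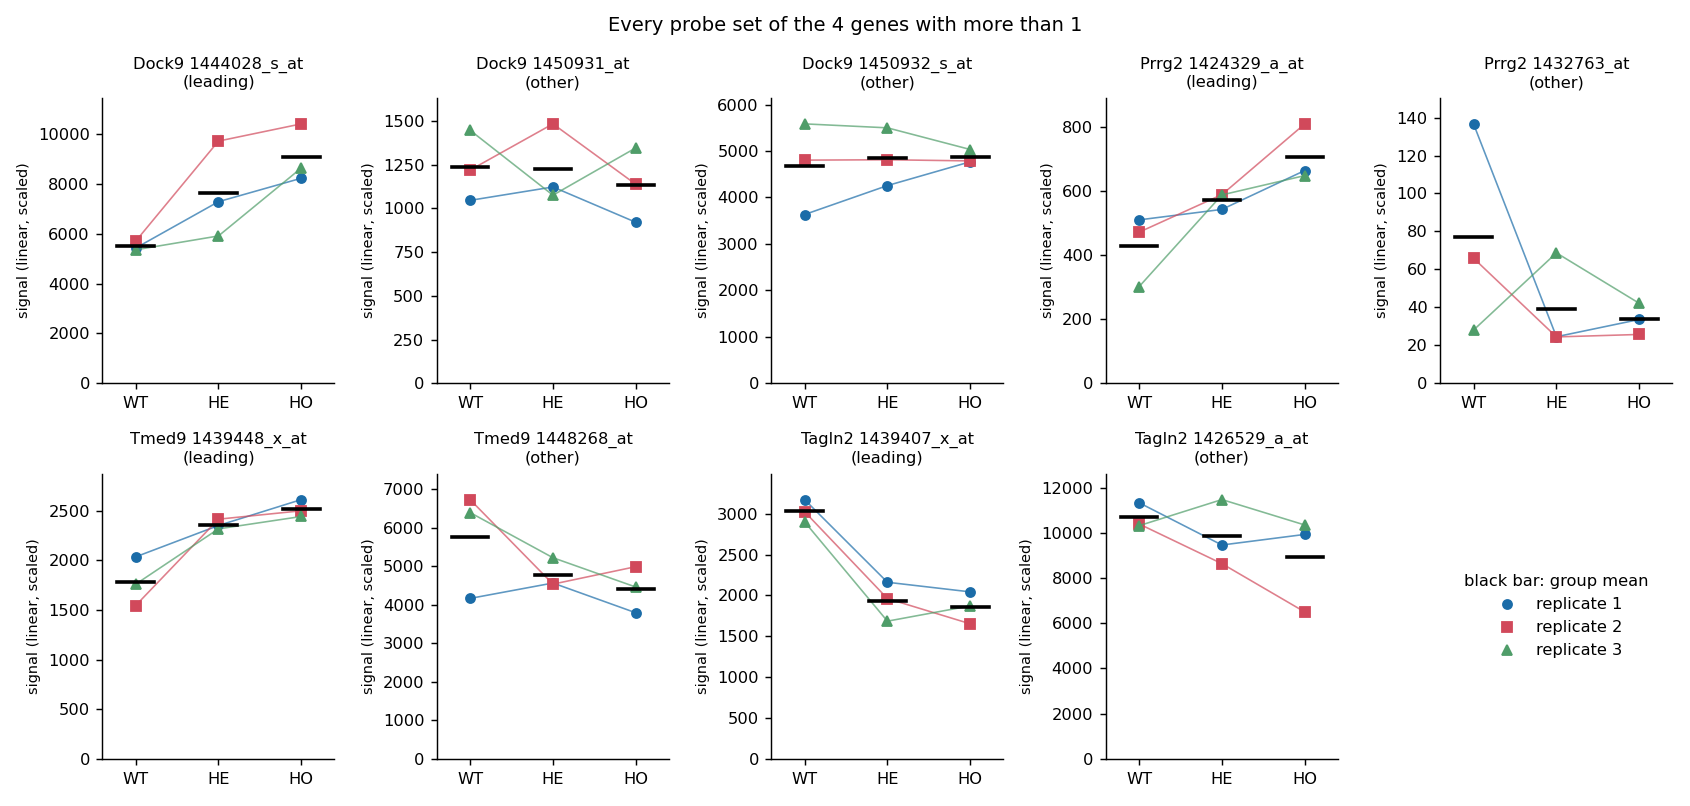
Signal (vertical axis, linear, scaled) on each of the 9 arrays at every probe set of Dock9, Prrg2, Tmed9 and Tagln2, by genotype, with lines joining arrays of the same replicate number and black bars for group means. The Tmed9 panels run in opposite directions, and the Prrg2 probe set 1432763_at stays under 137.

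Each replicate number of the titles holds 1 array of each genotype, so the difference between numbers is separate from the difference between group means. It still entered the choice of leading probe sets, because the moderated t divides by a spread that includes it. A large t thus favours a small difference between numbers, and nothing is read from the values of the 7 genes beside those of the array. Across the array, 2 probe sets (0.0147%) differed between replicate numbers at an adjusted p of 0.05 in limma with the genotypes in the fit, and 1633 (12.0%) had an unadjusted p under 0.05. Of the 11 tested probe sets of the 7 genes 0 passed, and 0 of the leading ones had an unadjusted p under 0.05 (0.0773 for Dock9 to 0.632 for Mmaa, adjusted p = 0.465 to 0.847 in limma). The genotype order within a number comes directly from the arrays and contrasts on which the genes were chosen, and nothing is read from it either. Within each of the 3 numbers the arrays ran in the order WT, HE, HO for 5 of the 7 genes, Dock9, Prrg2, Tmed9, Mmaa and Chm (1.24% of all tested probe sets are in order within all 3, in either direction). Ltb was out of order in number 2, where HE lay below WT by 0.27, and Tagln2 in number 3, where HO lay above HE. HO minus WT within numbers 1, 2 and 3 was 0.60, 0.87 and 0.69 for Dock9, 0.38, 0.78 and 1.11 for Prrg2, and 0.57, 0.48 and 0.52 for Chm. It was 0.36, 0.70 and 0.47 for Tmed9, 0.53, 0.80 and 0.27 for Mmaa, 0.87, 0.62 and 0.74 for Ltb, and -0.63, -0.87 and -0.63 for Tagln2.

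The genes most like each member over the 9 arrays were sought by Pearson correlation of log2 signals, which takes in the genotype pattern itself. The search covered the tested probe sets of other genes that are named by 1 symbol. Rffl, an endosomal ubiquitin ligase, followed Ltb at r = 0.963. Rnps1 followed Prrg2 at r = 0.953, by a probe set with HO minus WT of 0.55 while its others gave -0.02, -0.17 and 0.17. Taz followed Tmed9 at r = 0.952, with Yipf3 at 0.945. Prkra followed Tagln2 at r = 0.946, with HO minus WT at -0.18. Txlng followed Dock9 at r = 0.939, and Glul, glutamine synthetase, at 0.933 with 0.41 and 0.46 at its 2 tested probe sets. Ace, angiotensin-converting enzyme, followed Mmaa at r = 0.935, by a probe set with HO minus WT of 0.37 while its other gave -0.01, and Tango2 at 0.921. Cd99l2 followed Chm at r = 0.910, by a probe set with HO minus WT of 0.24 while its other gave -0.42. These are the highest of all the correlations with those probe sets over the same 9 arrays. The other genes among the 3 nearest were Drg2 for Dock9, Slc25a17 and Aup1 for Prrg2, Csad for Tmed9, and Atp5mpl and Zfyve19 for Ltb. For Mmaa there was also Smc1a (HO minus WT 0.23, other probe sets -0.11 and -0.41). Chm had Rtbdn and Mbp (0.30, other probe set -0.08). Tagln2 had Sox5 and Dbi (-0.52, other probe sets 0.11, -0.43 and -0.12).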

How the data were processed

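The deposited table holds 1 linear signal intensity per probe set and array. Judged by the values, scaling by the authors gave all arrays a common trimmed mean of 1500.4 (2% trimmed at each end). The arrays are Affymetrix mouse 430A with biotin-labelled RNA, per the labels, and the summarising software is one not given in the sources used here. Intensities below the 5th percentile (25.5) were set to it and log2 taken. Removing 64 control probe sets and those whose mean log2 was under the 40th percentile (8.90) left 13576. Groups came from the titles. Group means were fitted with limma 3.58.1 in R 4.3.3 (6 residual degrees of freedom, Benjamini-Hochberg over all), with a moderated F test of replicate number. The labels do not say that the samples of a group are separate animals, so p-values measure only the spread between these samples. Arrays give no depth, and their number limits the precision.

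Within replicate numbers 1, 2 and 3, deviations from group means correlated at 0.19, 0.14 and 0.28 for HO with WT. The values were 0.30, 0.05 and 0.04 for HE with WT and 0.16, 0.15 and 0.03 for HO with HE. All were positive, and the arrays of a replicate number also share the number that opens their source name. Whether the samples are paired was not tested, and the main fit leaves replicate number out. The code was tested on simulated data. The members and lists were chosen with earlier results of these data known. Named genes were the members, fixed direct partners, up to 4 genes of lowest p in HO minus WT per pathway list, and the 3 nearest by correlation. Probe sets were named by the platform annotation where it gave 1 symbol, and the 7 genes matched RefSeq (GRCm38.p6) by identifier. Alternatives were another normalization, filter, floor, variance model or label of HO replicate 2, a replicate block, and leaving out each array.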

Additional observations from a re-analysis of the deposited data

How the results depend on the processing

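Of 366 member differences recomputed under the alternatives, 362 moved by less than the spread between replicates, 3 changed sign and 1 moved further. Many of the 366 could not move. Another filter, floor or variance model or the replicate block left these differences as they were. Leaving out an array left the contrast of the other groups unchanged. The count of 362 is therefore no measure of stability. The sign changes were all the Tagln2 step from HE to HO, which was 0.078 with HO replicate 2 counted as HE and ran from -0.16 to 0.024 with 1 array left out. The further move was the Ltb step from HE to HO. All 7 genes kept group means in one direction except in those 3 settings, where 6 did, and with a filter at the 60th percentile, which left 3 leading probe sets to count. Without a filter 8183 probe sets had group means in one direction. No probe set passed in HO against WT, HE against WT or HO against HE under the alternatives run, apart from 2 in HE against WT and 2 in HO against HE without a filter, and 0 to 1 in HO against WT and in HE against WT with 1 array left out, the 1 being without WT replicate 1. With the replicate block 0 passed, with 808, 591 and 474 at an unadjusted p under 0.05, and no call changed. The count for replicate number, 2, was 1 with quantile normalization, median centring or a filter at the 60th percentile, 0 without a filter or with HO replicate 2 counted as HE, 5 with a trended and robust variance, and 0 to 1 with 1 array left out. The cause of these changes was not tested.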
